A study of Mus musculus with 8 samples.

Results

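Clustered myogenin binding regions are stretches of the genome in which 3 or more myogenin regions followed each other at gaps of at most 12500 bp. Myogenin ChIP-seq was performed in C2C12 cells, a mouse myoblast line of the C3H strain, after 24 h in differentiation medium without bexarotene (Ctl) or with 50 nM bexarotene added when differentiation began (Bex). Each condition had 1 library, so a difference between the lists cannot be set against the spread between cultures, and no test between conditions was made. p300 was measured by ChIP-seq in the same design, with 1 library per condition, and its peak lists are used here only as a feature of the myogenin regions. C2C12 is an established line of a single origin, and every group shares its genetic background.

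The clustered regions were selected on the measured peak positions themselves. The Ctl and Bex myogenin lists were joined, any intervals sharing 1 bp were fused, and mitochondrial intervals and those on chromosome 9 below 3.1 Mb were left out, which left 9525 regions. Neighbouring regions were chained when the gap between them was at most 12500 bp, and chains of 3 or more regions were kept. This gave 616 chains that held 2427 of the 9525 regions (25.5%), while 7098 regions lay outside, 4910 of them isolated and 2188 in 1094 pairs. The gap rule had no natural edge in the data. Over all neighbouring regions, pairs included, the widest gap within the limit was 12497 bp and the narrowest beyond it was 12507 bp. There were 233 gaps from 10 kb up to the limit and 210 from the limit up to 15 kb. Close spacing is what the rule asked for and is given only as a description.

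Myogenin is a basic helix-loop-helix transcription factor of the MyoD family that pairs with E-proteins, binds the E-box and drives the terminal differentiation of myoblasts. Muscle genes are commonly controlled by promoters and distal enhancers that each carry E-boxes, so several bound sites around the same gene are a familiar arrangement. Bexarotene is a selective agonist of the retinoid X receptor (RXR), a nuclear receptor that binds DNA with partner receptors, and p300 is a histone acetyltransferase found at active enhancers.

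Regions with Ctl intervals alone are termed control-only, those with Bex intervals alone bexarotene-only, and those with intervals from each list shared. The E-box was searched on the plus strand as any of 3 hexamers that cover both strands. The first was CAGCTG, which is its own reverse complement. Another was CACCTG, and the last was the reverse complement of that one, CAGGTG. The search covered 50 bp on either side of the region center, a window of 100 bp in which 4796 of all 9525 regions (50.4%) held a match. No start position can match more than 1 of them. A match is a description of the letters in this window and not evidence that the site was used.

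Myomixer is a small membrane protein that acts with myomaker in myoblast fusion. The chain around its gene shows how unevenly the E-box is spread over the centers of neighbouring regions. It is annotated under the older symbol Gm7325 and spans chr17:45733753-45753969. The sequences are the central 100 bp of its 4 shared regions on the plus strand of mm9, in the order of the chromosome, with E-boxes in capitals.
Gm7325 chain, shared region in an intron of Slc29a1 (chr17:45734881-45734980): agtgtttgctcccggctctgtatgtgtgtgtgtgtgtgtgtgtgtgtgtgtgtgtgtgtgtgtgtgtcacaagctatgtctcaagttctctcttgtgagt
Gm7325 chain, shared region at the Gm7325 promoter (chr17:45739070-45739169): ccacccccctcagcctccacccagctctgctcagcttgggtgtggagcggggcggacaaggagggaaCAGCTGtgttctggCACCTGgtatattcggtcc
Gm7325 chain, shared intergenic region (chr17:45748313-45748412): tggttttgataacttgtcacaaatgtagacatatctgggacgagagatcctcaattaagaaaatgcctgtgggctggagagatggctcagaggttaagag
Gm7325 chain, shared intergenic region at the far end (chr17:45753161-45753260): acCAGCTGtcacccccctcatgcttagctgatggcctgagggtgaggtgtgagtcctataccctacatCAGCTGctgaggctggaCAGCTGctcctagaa
The promoter region, centered 69 bp upstream of the Gm7325 TSS, held 2 E-boxes. The region centered 14160 bp upstream held 3, all of them CAGCTG, and the shared regions between and beyond them held none in the window. Over their whole length the 4 shared regions held 1, 3, 1 and 4 E-boxes in the order shown.

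The chain at Rdh5 and Itga7 on chromosome 10 is shown because it is among the largest in number of regions and reaches into the gene of the laminin receptor subunit integrin alpha 7, a muscle adhesion protein. The central 100 bp of its 4 shared regions each held at most 1 E-box.
Itga7 chain, shared region at the Cd63 promoter (chr10:128346800-128346899): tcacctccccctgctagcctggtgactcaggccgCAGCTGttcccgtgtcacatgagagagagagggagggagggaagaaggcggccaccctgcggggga
Itga7 chain, shared region in Rdh5 (chr10:128359366-128359465): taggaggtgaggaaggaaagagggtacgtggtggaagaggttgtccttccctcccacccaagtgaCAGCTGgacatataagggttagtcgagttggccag
Itga7 chain, shared region upstream of Itga7 (chr10:128368531-128368630): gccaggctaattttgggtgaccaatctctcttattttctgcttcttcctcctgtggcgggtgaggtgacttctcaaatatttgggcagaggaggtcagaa
Itga7 chain, shared region in an intron of Itga7 (chr10:128375686-128375785): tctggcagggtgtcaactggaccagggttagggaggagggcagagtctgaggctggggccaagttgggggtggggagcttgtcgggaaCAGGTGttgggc
A control-only region is shown from the Midn chain on chromosome 10, the first one at a promoter, near Atp5d. It held no E-box in its window, while 4 of the 8 control-only and 2 of the 5 shared regions of that chain held one.
Midn chain, control-only region at the Atp5d promoter (chr10:79603875-79603974): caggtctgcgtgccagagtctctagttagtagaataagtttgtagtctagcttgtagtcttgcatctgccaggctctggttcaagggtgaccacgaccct

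Further regions, picked after their values were seen, show the E-boxes of chains at genes of muscle cells and of the nuclear lamina. They are the 3 shared regions of the chain nearest the gene of the myogenic factor MyoD, a shared intronic region of Mef2d, the shared region at the promoter of Chrng, which encodes the fetal gamma subunit of the acetylcholine receptor, and a bexarotene-only region in Lmna, the gene of the nuclear lamins A and C.
Myod1 chain, shared region 34802 bp upstream (chr7:53596992-53597091): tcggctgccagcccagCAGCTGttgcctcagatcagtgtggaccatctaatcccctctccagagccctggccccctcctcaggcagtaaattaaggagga
Myod1 chain, shared region 26159 bp upstream (chr7:53605635-53605734): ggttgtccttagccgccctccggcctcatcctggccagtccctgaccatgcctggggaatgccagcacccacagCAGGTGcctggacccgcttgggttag
Myod1 chain, shared region 23101 bp upstream (chr7:53608693-53608792): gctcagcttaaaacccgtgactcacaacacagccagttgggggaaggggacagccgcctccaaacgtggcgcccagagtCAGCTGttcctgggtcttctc
Mef2d chain, shared intronic region (chr3:87951554-87951653): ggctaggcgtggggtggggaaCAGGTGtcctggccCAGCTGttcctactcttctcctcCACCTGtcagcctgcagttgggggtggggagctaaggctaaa
Chrng chain, shared promoter region (chr1:89102164-89102263): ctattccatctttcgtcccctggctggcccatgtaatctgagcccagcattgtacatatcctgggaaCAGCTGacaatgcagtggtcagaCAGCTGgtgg
Lmna chain, bexarotene-only intronic region (chr3:88300769-88300868): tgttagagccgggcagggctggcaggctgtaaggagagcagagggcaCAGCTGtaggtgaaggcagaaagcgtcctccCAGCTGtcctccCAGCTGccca
Each Myod1 region held 1 E-box, the Chrng promoter region held 2, and the Mef2d and Lmna regions held 3 each.

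Most chains were short. Of the 616 chains, 345 had 3 regions, 128 had 4, 79 had 5, and 64 had 6 or more, up to 15 regions in the chains led by Midn and by Rdh5. The median span was 9389 bp (quartiles 4659 and 14972.5 bp), from 734 bp to the 54323 bp of the Mtss1 chain on chromosome 15. Within chains the median gap was 1895 bp, and 641 of 1811 gaps (35.4%) were at most 1 kb. In 491 chains (79.7%) all regions had the same nearest gene.

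Clustered regions held control-only, shared and bexarotene-only regions in similar numbers. Of the 2427 regions, 876 were control-only (36.1%, 95% Wilson interval 34.2 to 38.0), beside 30.6% of all 9525 regions. The 718 shared regions were 29.6% (27.8 to 31.4), beside 31.1% of all regions, and the 833 bexarotene-only regions were 34.3% (32.5 to 36.2), beside 38.3% of all regions. The classes come from the same lists that set the chains, so these shares are a description. The intervals cover counting error over regions only, and neighbouring regions are not independent of each other.

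The control-only share was 27.3% of isolated regions, 32.0% of paired ones and 36.0%, 34.8%, 35.4% and 38.1% in chains of 3, 4, 5 and 6 or more regions. The bexarotene-only share was 41.1% of isolated regions, 36.3% of paired ones and 35.7%, 34.2%, 31.6% and 33.8% in these chains. Among the chain sizes the intervals overlapped, with no steady order. Read by class, 30.0% of control-only, 24.2% of shared and 22.9% of bexarotene-only regions lay in chains. Among regions more than 1 kb from a TSS these shares were 29.1%, 23.4% and 21.7%. Within 1 kb of a TSS they were 31.5% (28.9 to 34.2), 33.7% (28.1 to 39.8) and 29.3% (25.7 to 33.2), with overlapping intervals. Over the chains as a whole the conditions were near balance. In all, 1596 Ctl intervals (27.1% of that list) and 1556 Bex intervals (23.5%) lay in chains and covered 377479 and 377049 bp.

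**Figure D1:**
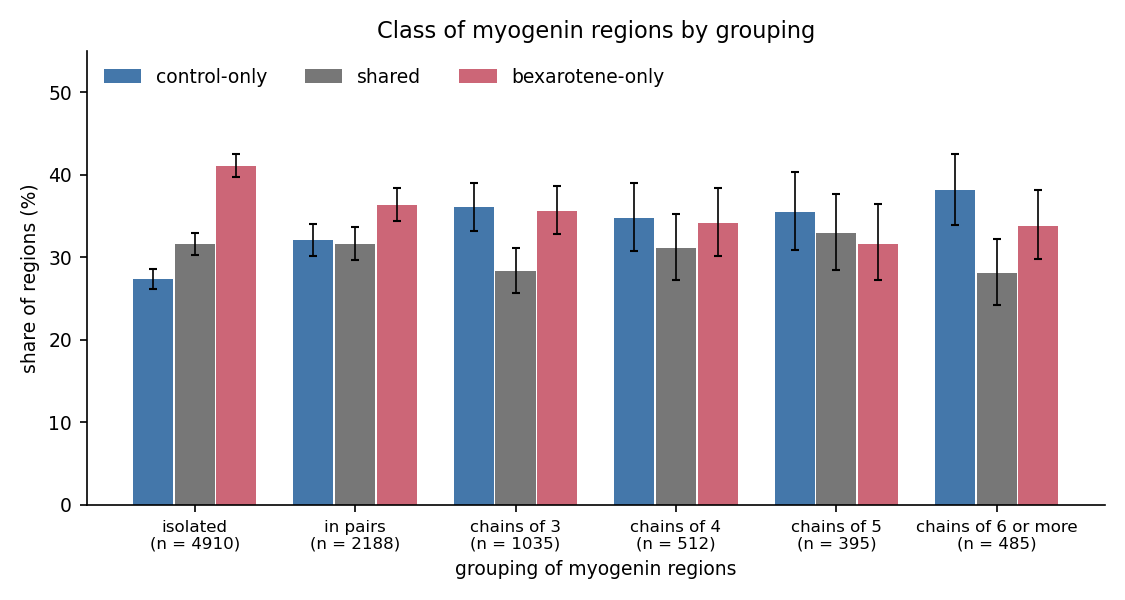
Share of control-only, shared and bexarotene-only myogenin regions (y axis, %) among isolated regions, pairs and chains of increasing size (x axis, number of regions in each below), with 95% Wilson intervals as error bars. Control-only regions are 27.3% of isolated regions and 38.1% of regions in chains of 6 or more.

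Counted chain by chain, neither condition dominated. Bex intervals outnumbered Ctl intervals in 247 chains, Ctl intervals outnumbered Bex intervals in 241, and 128 chains had as many of each. The rule chained the union of both lists, and 117 chains would have been found in either list alone. A further 155 would have been found in the Ctl list only, 170 in the Bex list only, and 174 reached 3 regions only when the lists were joined. These counts leave out 1 chain of the Ctl list and 2 of the Bex list that fell below 3 regions on joining. In shared clustered regions the called width was larger in Bex in 346 and larger in Ctl in 367 of 718, with medians of 264 and 237.5 bp. The smallest interval is 168 bp in Bex and 172 bp in Ctl, so the 113 regions at the smallest width in both lists count as larger in Ctl. Among the 426 regions above it in both lists, 226 were larger in Bex and 195 in Ctl. A further 120 regions had the smallest width in Ctl only and 59 in Bex only. The widths themselves set these subsets, so the counts are a description.

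Chains mixed the classes in 7 ways. All 3 classes occurred together in 181 chains (29.4%, 25.9 to 33.1), control-only with bexarotene-only regions and no shared one in 150, and shared with bexarotene-only regions in 133. Control-only with shared regions made up 67 chains, control-only regions alone 44, shared regions alone 23 and bexarotene-only regions alone 18. A larger chain has more room for all classes: 52 of 345 chains of 3 regions and 42 of 64 chains of 6 or more held all 3.

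The sequence and location of the regions differed with this mix. The classes themselves differed in E-box share, at 63.6% of shared, 40.3% of bexarotene-only and 21.6% of control-only clustered regions. The types of chain are defined by these classes, so the values below partly restate the classes. In the chains of shared regions alone, 71.2% of 73 regions held an E-box, and in chains of shared and bexarotene-only regions 63.4% of 481 did. The share was 42.6% of 54 regions where all were bexarotene-only and 39.7% of 887 where all 3 classes were present. In chains of control-only and shared regions it was 39.7% of 242. The share was 23.6% of 542 in chains of control-only and bexarotene-only regions and 17.6% of 148 where all were control-only. Regions within 1 kb of a TSS ran opposite, at 42.8% and 38.5% in these last types of chain and at 6.24% in chains of shared and bexarotene-only regions. A p300 peak overlapped 46.2% of the regions in shared and bexarotene-only chains and 14.9% of those in control-only chains.

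**Figure D2:**
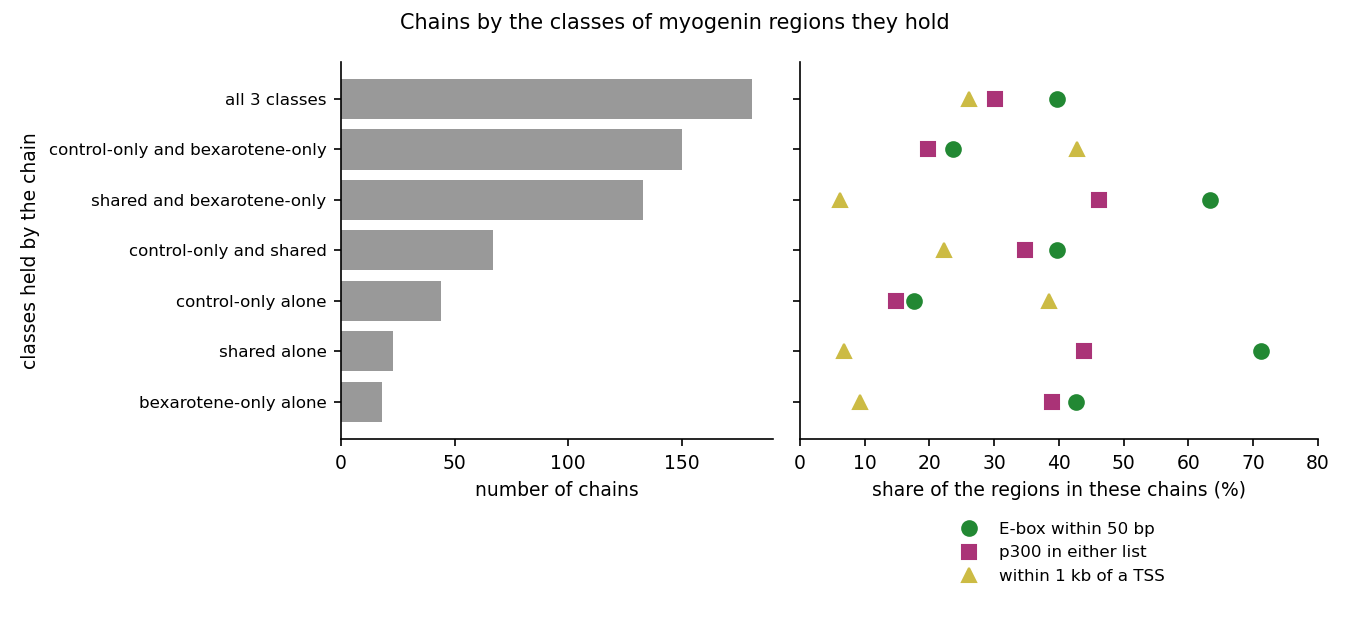
Number of chains holding each combination of classes (left, x axis in chains), and the share of the regions in those chains (right, x axis in %) that held an E-box within 50 bp of the center, overlapped p300 in either list or lay within 1 kb of a TSS. Chains without control-only regions sit high for the E-box and p300 and low for the TSS, except that chains of bexarotene-only regions alone have an E-box share of 42.6%.

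Neighbouring regions were of the same class in 722 of 1811 cases (39.9%). A control-only region lay beside a bexarotene-only one in 430 cases (23.7%), with a median gap of 1476.5 bp, and in 179 of 641 (27.9%) among neighbours at most 1 kb apart. These classes were also the most numerous in chains, at 36.1% and 34.3%, and no preference for a pairing is read from the counts. Control-only regions beside each other were closest, at a median gap of 1052 bp in 303 cases. Shared regions beside each other were spaced wider, at a median of 2920 bp in 215 cases.

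The longest interval of a chain was most often in a shared region. A wider interval is more likely to overlap the other list and so to be called shared, and shared regions were also the wider class outside chains, with a median of 284 bp against 172 bp for control-only and 168 bp for bexarotene-only regions. Among 248 chains that held both a shared and a control-only region, the longest Ctl interval lay in a shared region in 163 (65.7%, 59.6 to 71.4), in a control-only region in 40, and was tied in 45. Among 314 chains with a shared and a bexarotene-only region, the longest Bex interval lay in a shared region in 229 (72.9%, 67.8 to 77.5), in a bexarotene-only region in 53, and was tied in 32. The median distance from a bexarotene-only region to the nearest shared region of its chain was 4.50 kb (n = 519), and from a control-only region 4.07 kb (n = 446).

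Bexarotene-only regions differed between chains with and without a shared region. With one, 241 of 519 held an E-box (46.4%, 42.2 to 50.7) and 77 (14.8%) lay within 1 kb of a TSS. Without one, 95 of 314 held an E-box (30.3%, 25.4 to 35.5) and 88 (28.0%) lay within 1 kb of a TSS. The E-box intervals did not overlap. For control-only regions the E-box shares were 24.0% with and 19.1% without a shared region, and those intervals overlapped. Their shares within 1 kb of a TSS were 35.7% (31.3 to 40.2) with and 47.9% (43.2 to 52.6) without a shared region, and these intervals did not overlap.

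An E-box was less frequent in clustered than in other regions, in each class. It was found in 982 of 2427 clustered regions (40.5%, 38.5 to 42.4) and in 3814 of 7098 others (53.7%, 52.6 to 54.9). The values were 63.6% against 72.7% for shared, 40.3% against 55.5% for bexarotene-only and 21.6% against 30.5% for control-only regions, and the 95% intervals did not overlap in any class. The same order held among regions more than 1 kb from a TSS, at 67.5% against 73.8%, 44.5% against 60.3% and 27.8% against 37.5%. Within 1 kb of a TSS, bexarotene-only regions had 23.6% (17.8 to 30.7) against 26.1% (22.1 to 30.7), with overlapping intervals. There the values were 34.5% against 58.2% for shared and 12.9% against 19.6% for control-only regions, without overlap of the intervals. Pooled over classes, the share was lower in larger groups, at 55.5% of isolated regions and 49.7% of paired ones. It was 41.5% (39.3 to 43.7) in chains of 3 to 5 and 36.5% (32.3 to 40.9) in chains of 6 or more, with overlapping intervals. The mix of classes also changed along these groups, with 27.3% control-only among isolated regions and 38.1% in chains of 6 or more. Seen over whole chains, 473 (76.8%) held at least 1 region with an E-box, 298 at least 2, and in 65 every region had one.

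p300 overlapped 755 clustered regions (31.1%, 29.3 to 33.0) and 36.1% of the others (35.0 to 37.2). Among control-only regions the intervals did not overlap, at 18.3% (15.8 to 21.0) against 24.7% (22.9 to 26.6). This difference lay in control-only regions more than 1 kb from a TSS, at 24.7% (21.1 to 28.6) against 34.3% (31.7 to 37.0). Within 1 kb of a TSS the control-only values were 9.32% (6.74 to 12.7) and 9.69% (7.82 to 11.9), with overlapping intervals. For shared regions the values were 50.1% (46.5 to 53.8) and 51.9% (49.8 to 54.0), and for bexarotene-only regions 28.2% (25.3 to 31.4) and 31.8% (30.1 to 33.5), with overlapping intervals in both. A p300 region was present in 405 chains (65.7%), in 374 by the Ctl p300 list and in 290 by the Bex p300 list, which hold 22051 and 9154 intervals in all.

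Clustered regions lay closer to genes. A TSS was within 1 kb of 25.3% (23.6 to 27.1) of them and of 19.1% (18.2 to 20.1) of the others, and the median distance to a TSS was 5.24 kb against 16.7 kb. By class, 19.8% of bexarotene-only and 11.7% of shared clustered regions lay within 1 kb of a TSS, against 14.2% and 7.36% outside. For control-only regions the values were 41.7% and 38.9%, with overlapping 95% intervals. The median GC content was 53% against 50.5%, and the median number of genes within 50 kb was 2 against 1. Introns held 49.4% of clustered regions, intergenic sequence 41.9%, UTRs 5.40% and coding exons 3.30%.

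**Figure D3:**
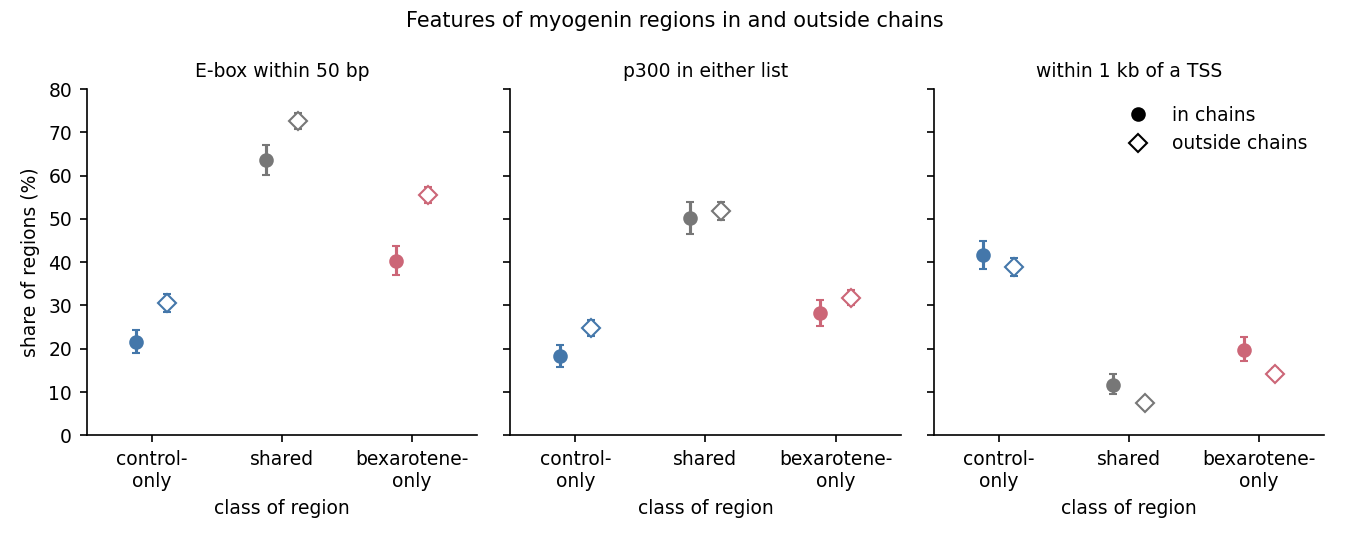
Share of myogenin regions (y axis, %) that held an E-box, overlapped p300 or lay within 1 kb of a TSS, by class (x axis), in chains (filled circles) and outside chains (open diamonds), with 95% Wilson intervals. The E-box share is lower in chains in every class, from 72.7% to 63.6% for shared regions.

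The 12 chains with most regions together held 132 regions, of which 61 were control-only (46.2%), 31 shared (23.5%) and 40 bexarotene-only (30.3%), beside 36.1%, 29.6% and 34.3% of all clustered regions. Ctl intervals outnumbered Bex intervals in 9 of them. All 12 held a region within 1 kb of a TSS, and 5 lay on chromosome 10. The choice of 12 splits a tie, since 7 chains had 9 regions and the 2 with the longest spans were left out. Of these, the Hook2 chain had 4 Ctl and 6 Bex intervals, and the Mtss1 chain had 7 and 8 and no region within 1 kb of a TSS. An E-box was found in 44 of the 132 regions (33.3%) and p300 in 25 (18.9%), beside 40.5% and 31.1% of all clustered regions.

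The Midn chain, chr10:79603839-79629517, held 15 regions over Atp5d, a subunit gene of the ATP synthase, Midn and Cirbp, which encodes a cold-inducible RNA-binding protein. It had 8 control-only, 5 shared and 2 bexarotene-only regions and counted 14 Ctl intervals of 4819 bp and 8 Bex intervals of 2896 bp. The widest region, between Midn and Cirbp at chr10:79624118-79625833, was called over 1438 bp in Ctl and 1394 bp in Bex. Of the 15 regions, 11 lay within 1 kb of a TSS.

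The chain from Cd63 to Itga7, chr10:128346206-128375875, also held 15 regions, with the opposite balance of 4 control-only, 4 shared and 7 bexarotene-only. Of the 7 bexarotene-only regions, 6 had the smallest width of the Bex list, 168 bp, and the other was 232 bp wide. The shared region in Rdh5, which encodes a retinol dehydrogenase, reached 1292 bp in Ctl and 951 bp in Bex. No bexarotene-only region of this chain held an E-box in its window, and the one of 232 bp held 1 outside it.

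All 14 regions of the Plec chain, chr15:76026826-76058396, had Plec as nearest gene. Plec encodes plectin, which links intermediate filaments to the Z-disc and the membrane. The chain held 3 control-only, 4 shared and 7 bexarotene-only regions, and 8 of the 14 held an E-box. The last 3 regions toward the 5′ end of the gene, spaced by 5150 to 8612 bp, were all bexarotene-only and 168 bp wide, and the outermost held 2 E-boxes.

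The Gapdh chain on chromosome 6 held 10 regions, of which the 5 shared ones came first along the chromosome, most of them nearest to Iffo1, and the control-only and bexarotene-only ones lay at Gapdh, the glycolytic enzyme gene. An E-box was found in 7 of its regions. The Eef2 chain on chromosome 10, at a translation elongation factor gene, held 11 regions with 9 Ctl and 3 Bex intervals. The Mex3d chain held 11 regions with 9 Ctl and 5 Bex intervals, and 1 of its regions held an E-box.

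The other large chains were led by Sap130 with 11 regions and by Safb, Mknk2, Fkbp2, Dvl2 and Tlcd1 with 9 each. Control-only regions were the largest class in each of these 6. The Dvl2 chain was the only one of the 12 without a shared region, at 6 control-only and 3 bexarotene-only.

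**Figure D4:**
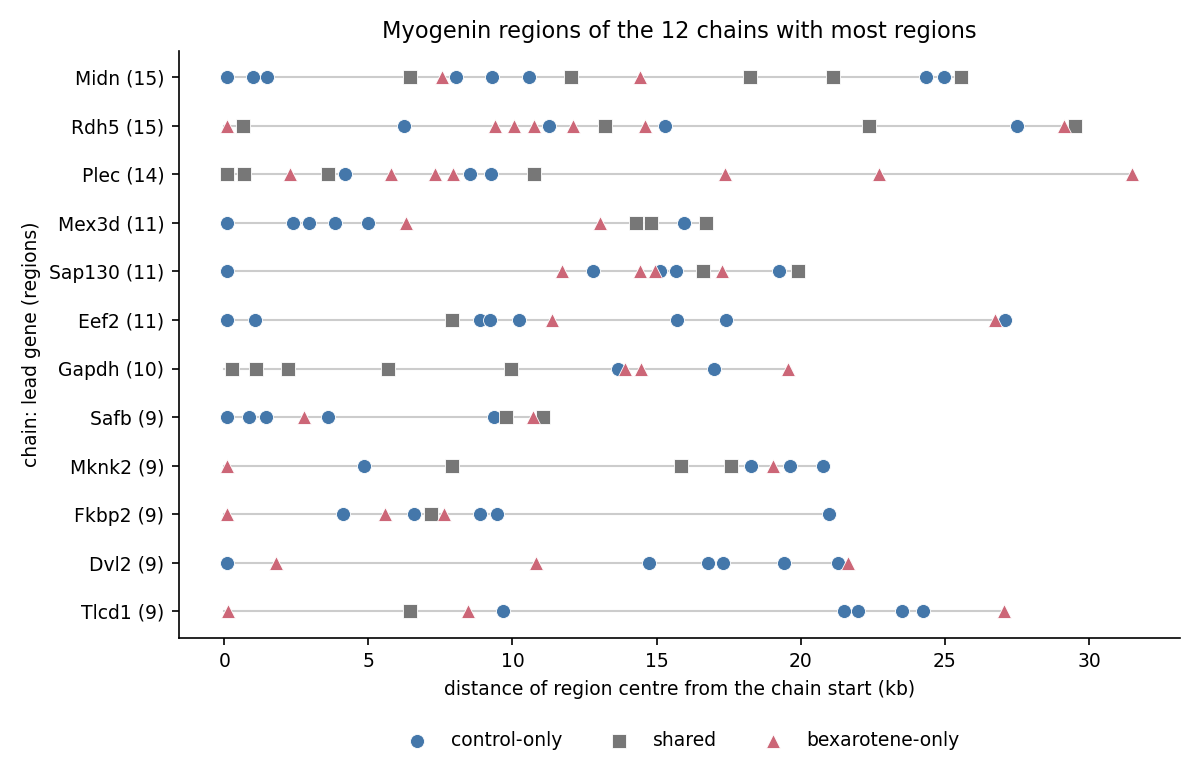
Position of each region center along the 12 chains with most regions (x axis, kb from the chain start; y axis, the lead gene with its number of regions), by class. The Dvl2 chain has no shared region, and in the Gapdh chain the 5 shared regions come first.

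Chains of a single class were small. The most members among those of shared regions alone was 4, reached by 4 chains. The 3 with the shortest spans were at Gm10800, at Acox3, a peroxisomal oxidase gene, and upstream of Ghr, the growth hormone receptor gene. The Gm10800 chain, chr2:98502362-98507605, had 4 regions between 358 and 1294 bp wide in the lists. None held an E-box in the window, none overlapped p300, and their median GC content was 35%. The 5-region chain nearest to Vmn1r238 on chromosome 18 also held no E-box and no p300 overlap, at a median GC content of 35%. The 7-region chain at Gm17379 on chromosome X likewise held no E-box and no p300 overlap. In all, 81 chains held neither. Repeat content and mappability were not tested for these chains.

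The chains of bexarotene-only regions alone with the shortest spans were at Mib1, Fam134b and Rfx4, with 3 regions each over 1169, 1381 and 1988 bp. Every Mib1 region held an E-box in its window, while none did at Fam134b or Rfx4, where E-boxes were found only outside the window. p300 overlapped 2 of the Mib1, 3 of the Fam134b and 2 of the Rfx4 regions. Mib1 encodes a ubiquitin ligase that activates Notch ligands. Among chains of control-only regions alone, the one at Zfp36l2, a gene of an mRNA-decay factor, had 6 regions over 8531 bp, and 3 chains had 5, of which those nearest to Ppara and Eef1d had the shorter spans. The 5 regions assigned to Ppara were intergenic, 59107 to 66184 bp upstream of its TSS. The Ppara gene, a fatty acid-sensing nuclear receptor, also had a separate chain of 3 bexarotene-only regions.

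Chains of shared and bexarotene-only regions, with no control-only one, included Srsf3, Pabpn1l and Cd82 with 7 regions each. The Srsf3 chain, chr17:29187885-29200783, lay between Srsf3 and Cdkn1a, the gene of the cell cycle inhibitor p21, and its last region was nearest to Cdkn1a, 27224 bp upstream. Of its 7 regions, 6 held an E-box and 6 overlapped p300, with widths of 215 to 509 bp in Ctl for the 5 shared regions. The Cd82 chain, over a tetraspanin gene, spanned 29119 bp and held 4 shared and 3 bexarotene-only regions, 6 with an E-box, and all 7 were intronic.

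By the nearest TSS, 4908 of 22238 genes (22.1%) were assigned a myogenin region. Only these could have a clustered one, so the share of a list in chains also follows how many of its genes had any region. At least 1 clustered region was assigned by the nearest TSS to 730 of 22238 genes (3.28%), and 545 of them had 3 or more. Genes of muscle differentiation were among them. Over the lists of myogenic factors, sarcomere, fusion, acetylcholine receptor, excitation-contraction coupling, dystrophin complex and cell cycle exit genes, 30 genes had 119 clustered regions. Of these, 18 were control-only (15.1%), 60 shared (50.4%) and 41 bexarotene-only (34.5%), beside 36.1%, 29.6% and 34.3% of all clustered regions. The myogenic factor list supplied 12 of the 18 control-only regions. An E-box was found in 70 (58.8%), beside 40.5%. These lists were drawn up with results of these data known, so the shares are a description.

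Of the 25 myogenic factor genes, 20 had a myogenin region and 6 had clustered ones, beside 22.1% and 3.28% of all genes. These 6 genes had 37 clustered regions, 12 control-only, 16 shared and 9 bexarotene-only. Runx1, a transcription factor gene induced in muscle after denervation, had 13 clustered regions in 3 chains upstream of its TSS, 3 control-only, 6 shared and 4 bexarotene-only. The largest chain, of 7 regions, ran over 31241 bp with 4 shared regions of 233 to 308 bp in Ctl and 267 to 377 bp in Bex. Mef2d, which encodes a partner factor of the MyoD family, had 8 clustered regions upstream of and within the gene, 3 control-only, 2 shared and 3 bexarotene-only, and 5 held an E-box.

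Myod1 had 6 clustered regions in 2 chains, both upstream and intergenic. The chain chr7:53596896-53608903 consisted of 3 shared regions, 34802, 26159 and 23101 bp upstream, which were 277, 321 and 222 bp wide in Ctl and 292, 396 and 321 bp wide in Bex. All 3 were wider in Bex, all held an E-box and all overlapped p300 in Ctl, while 2 overlapped it in Bex. The farther chain, with centers from 61708 to 59330 bp upstream, held 2 shared regions and 1 control-only region. No region at Myod1 in a chain was bexarotene-only. Tead4, the gene of a TEA-domain factor, had 3 shared regions, Vgll2 had 3 control-only and 1 bexarotene-only, and Tcf3, which encodes the E-proteins E12 and E47, had 2 control-only and 1 bexarotene-only.

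Of 59 sarcomere and myosin genes, 39 had a myogenin region and 8 had clustered ones, beside 22.1% and 3.28% of all genes. These 8 genes had 25 clustered regions, of which 1 was control-only, 10 shared and 14 bexarotene-only. Of all clustered regions, 36.1%, 29.6% and 34.3% were in these classes. Acta1, the skeletal muscle actin gene, had 4, with 3 shared and 1 bexarotene-only. The shared region 1281 bp upstream of its TSS was called over 172 bp in Ctl and 453 bp in Bex, and the bexarotene-only region lay 616 bp upstream with an E-box. Actc1, the cardiac actin gene expressed in developing muscle, had 3 bexarotene-only regions of 168 to 210 bp and no clustered region from Ctl.

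Myom3, which encodes an M-band protein, likewise had 3 bexarotene-only regions, each with an E-box. Kbtbd10, the older symbol of Klhl41, a sarcomere assembly protein, had 2 shared and 2 bexarotene-only regions, all 4 with an E-box. Mylk4, a myosin light chain kinase gene, had 2 shared and 1 bexarotene-only, and Myl1, a fast alkali light chain gene, had 1 shared and 2 bexarotene-only. Tpm2, the beta tropomyosin gene, had the control-only region of the list, with 1 shared and 1 bexarotene-only. Mylpf, a fast regulatory light chain gene, had 1 shared and 1 bexarotene-only.

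Of 25 matched fusion and adhesion genes, 18 had a myogenin region and 4 had clustered ones, beside 22.1% and 3.28% of all genes. These 4 genes had 14 clustered regions, 1 control-only, 11 shared and 2 bexarotene-only, beside 29.6% shared among all clustered regions. At myomaker, annotated as Tmem8c, the chain chr2:26925187-26931412 held 3 shared regions that covered 678 bp in Ctl and 910 bp in Bex. All 3 held an E-box and none overlapped p300. At Gm7325 the whole chain held 8 regions, 1 control-only, 4 shared and 3 bexarotene-only. Its promoter region, whose sequence is given above, was 310 bp wide in Ctl and 321 bp in Bex, and the region 14160 bp upstream was 466 and 454 bp wide and overlapped p300 in both conditions. Ncam1, a cell adhesion gene, had 3 shared regions, each with an E-box, and Itga7 had 1 control-only, 2 shared and 1 bexarotene-only.

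Of 12 acetylcholine receptor and synapse genes, 7 had a myogenin region and 2 had clustered ones, beside 22.1% and 3.28% of all genes. At Chrng, chr1:89100487-89102380, the shared promoter region was 307 bp wide in Ctl and 317 bp in Bex and overlapped p300 in both. Next to it, 1136 and 1791 bp upstream of the TSS, lay 2 bexarotene-only regions of 213 and 216 bp, and all 3 regions of the chain held an E-box. Chrnb1 had 1 control-only and 1 shared region, neither with an E-box.

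The next lists stand against all genes, of which 22.1% had a region and 3.28% a clustered one. All clustered regions had a mix of 36.1% control-only, 29.6% shared and 34.3% bexarotene-only. Cell cycle exit genes had 18 clustered regions at 4 of 13 genes, 2 control-only, 10 shared and 6 bexarotene-only, and 9 of the 13 had any region. Gadd45g, a growth arrest and DNA damage gene, accounted for 11 of them in 3 chains, 7 with an E-box. Ccnd3, the cyclin gene expressed in differentiating muscle, had 3 shared regions over 12213 bp. Dystrophin complex genes had 17 clustered regions at 5 of 19 genes, with 1 control-only, 10 shared and 6 bexarotene-only, and 12 of the 19 had any region. Among the clustered genes Sspn, the sarcospan gene, had 5 clustered regions, Popdc2 had 4 and Utrn, the utrophin gene, had 3 that were all shared.

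The other lists had at most 3 genes each in chains. For the RXR and RAR receptors, at 2 of 6 genes, and growth factor signaling, at 3 of 20, the share was nevertheless above the 3.28% of all genes. These shares rest on few genes and are a description. Of the 6 RXR and RAR receptor genes, Rara had 5 clustered regions, 2 control-only, 1 shared and 2 bexarotene-only, and Rxrb had 1 control-only region. Growth factor signaling genes had 11 regions at 3 of 20 genes, including 3 shared regions at the Notch ligand gene Dll1 and 3 control-only and 1 shared region at Notch1. Excitation-contraction coupling had 1 gene of 25, Casq2, and muscle metabolism 1 of 15, the muscle enolase gene Eno3 with 3 bexarotene-only regions. None of the 8 adipocyte, 8 neuron, 8 hepatocyte, 8 blood or 20 ribosomal protein genes had a region in a chain. At 3.28% of all genes, lists of this size would hold few or no such genes in any case, so nothing is read from these counts.

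Lmna had 8 clustered regions of its own, chr3:88292382-88306138, with 1 control-only, no shared and 7 bexarotene-only. The bexarotene-only regions were 168 to 427 bp wide and 4 held an E-box. The single control-only region, 225 bp wide, lay 459 bp from a TSS.

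Chains were unevenly spread over the chromosomes. Chromosome 10 had 71 chains and chromosome 15 had 77, together 148 of 616 (24.0%). These chromosomes held 26.5% of the clustered regions, 17.4% of all myogenin regions and 8.23% of the genes. In chains lay 37.2% of the regions of chromosome 10 and 40.5% of those of chromosome 15, while the other chromosomes ranged from 11.5% to 30.3%. The densest 5 Mb windows were chr15 from 75 to 80 Mb with 145 regions and chr10 from 80 to 85 Mb with 113, beside a median window of 14.

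Control-only regions made up 46.9% of the clustered regions on chromosome 10 and 37.8% on chromosome 15, beside 37.0% and 36.1% of all regions there. The E-box share of clustered regions was 29.6% (24.8 to 34.8) on chromosome 10 and 30.2% (25.4 to 35.4) on chromosome 15. On the other chromosomes it was 44.3% (42.0 to 46.6). The lower share was not confined to chains. Outside chains the E-box share was 53.7% over all chromosomes and 55.3% without chromosomes 10 and 15, so unclustered regions there were also lower. Without both chromosomes the E-box share was still lower in chains than outside, at 44.3% against 55.3% over all regions, 66.6% against 74.1% for shared, 45.4% against 56.9% for bexarotene-only and 22.4% against 31.9% for control-only regions. Chromosome copy number in this line is not in the lists, and its part in the spread of the chains was not tested.

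**Figure D5:**
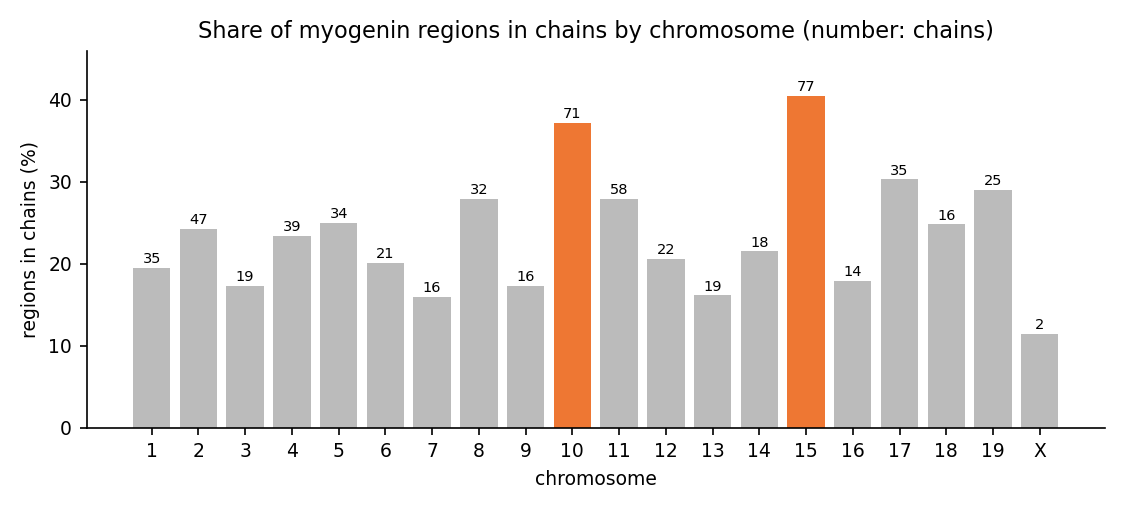
Share of the myogenin regions of each chromosome that lie in chains (y axis, %; x axis, chromosome), with the number of chains above each bar. Chromosomes 10 and 15, in orange, reach 37.2% and 40.5%, above the range of the other chromosomes.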

How the data were processed

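Myogenin and p300 ChIP-seq libraries, 1 per condition, were analysed from the deposited peak lists of 4 of the 8 samples. Input and H3K27me3 samples were not used here. Per the study's methods, the authors aligned 50 bp single-end reads to mm9 with BWA (myogenin) or Bowtie (p300), removed duplicates with Picard and called peaks per library with HOMER. The deposited values are positions, each a chromosome, a start counted from 0 and an end, with no tag counts, scores or depths, so the depth of each library is not known from them and the authors' threshold could not be changed. Printed positions are counted from 1.

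The Ctl and Bex myogenin lists held 5912 and 6642 intervals, of which 28 and 27 on the mitochondrial genome or chromosome 9 below 3.1 Mb were left out. Smallest intervals were 172 and 168 bp. Merging, chaining and classes are described with the results. p300 overlap required 1 bp. Distances ran from the region center to the nearest TSS of 45981 protein-coding records of GENCODE M1, in place of RefSeq, on the same build, and sequences came from that genome. Intervals on shares are 95% Wilson intervals and cover counting error only. Genes and chains were named by a fixed rule: the 12 chains with most regions, the 3 with most regions of each single class and of shared with bexarotene-only (ties by shorter span), and up to 5 genes of each muscle list, those with most regions first. The sarcomere and myogenic factor lists were named beyond 5 so that every gene with clustered regions appears. Those genes, Lmna, Mtss1, Hook2, Gm17379, Vmn1r238, the genes of the other lists and the added sequences were chosen after their values were seen. The members, lists and rules were chosen with earlier results of these data known. Alternatives changed the gap, chain size, overlap, lists, E-box, p300 and TSS settings. The functions were tested on simulated data. Python 3.11.15, numpy 2.4.6, pandas 2.3.3, pysam 0.24.0 and matplotlib 3.10.9 were used.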

Additional observations from a re-analysis of the deposited data

How the results depend on the processing

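The number of chains followed the rule. A gap of at most 5 kb gave 402 chains, chains of 5 or more regions 143, intervals longer than the smallest 144, the control list alone 273, the bexarotene list alone 289 and regions over 1 kb from a TSS 406. The last setting and the omission of chromosomes 10 and 15 were chosen after seeing the data. Chains holding all 3 classes, 29.4%, were 24.6% at 5 kb, 60.1% at 5 or more regions and 24.3% with the longer intervals. The bexarotene-only share, 34.3%, was 37.9% when shared regions needed a reciprocal overlap of 50% and 36.6% among regions over 1 kb from a TSS. The E-box share, 40.5%, was 33.4% at 5 kb, 44.5% at 25 kb, 37.6% at 5 or more regions, 58.0% over the whole region, 29.6% for CAGCTG only, 44.3% without chromosomes 10 and 15 and 49.2% over 1 kb from a TSS. The p300 share, 31.1%, was 26.6% at 5 kb, 27.3% and 18.8% by the control and bexarotene p300 list alone, 39.8% with p300 centers within 500 bp and 33.9% without chromosomes 10 and 15. The promoter share, 25.3%, was 33.0% at 5 kb, 22.5% at 25 kb, 29.7% with all transcripts, 38.5% within 2.5 kb and 22.4% without chromosomes 10 and 15. Other settings kept counts within 1.5 times and shares within their intervals. The causes were not tested. No paired analysis was possible because each condition had 1 library, and no replicate could be left out. The depth of each library is not in lists of positions, so a region absent from a list may lie just under the authors' threshold.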

Other observations

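Chains differed in whether any of their regions held an E-box or overlapped p300. Both were present in 343 of 616 chains (55.7%), whose 1446 regions were 28.1% control-only, 36.9% shared and 35.0% bexarotene-only. An E-box without p300 was found in 130 chains and p300 without an E-box in 62. Neither was found in 81 chains (13.1%), whose 279 regions were 59.9% control-only, 11.5% shared and 28.7% bexarotene-only, and 68 of these chains (84.0%) held a region within 1 kb of a TSS, beside 120 of the 343 (35.0%).

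Genes outside the lists also had many clustered regions. Bin1, which encodes the membrane-bending amphiphysin of the T-tubule, had 9, with 3 control-only, 6 shared and no bexarotene-only. Sorcs2, a sorting receptor gene, had 9, with 5 shared and 4 bexarotene-only, and 8 held an E-box. Sik1, a salt-inducible kinase gene, had 8, with 6 shared and 2 bexarotene-only. Myh9, the nonmuscle myosin IIA heavy chain gene, had 11, with 5 control-only, 3 shared and 3 bexarotene-only, and 2 held an E-box. These genes were picked after their counts were seen, and no pattern among them was tested.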
